A study of Mus musculus with 60 samples.

Results

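Collagens are secreted or membrane-bound proteins whose chains wind into triple helices, and their genes carry symbols made of Col, the collagen type and the chain. They were examined in RNA-Seq data from punches of the dorsal and ventral dentate gyrus (DG), the part of the hippocampus that holds the granule neurons. Members were chosen by symbol and as protein-coding, which gave 44 of the 46480 genes in the files. Tissue came from male C57BL6J mice collected at 80 days of age. They had been weaned on day 22 into standard housing (SH) or an enriched environment (EE) with toys and running wheels, and kept there for 8 weeks. Each sample pooled several mice, and the dorsal and ventral samples with one number came from the same mice. The comparisons used 18 samples from 9 pools, with 4 of dorsal SH, 5 of dorsal EE, 4 of ventral SH and 5 of ventral EE. The dorsal and ventral samples of SH replicate 3 were left out because *Xist*, an RNA of female cells, was high in both. The labels name no transgene, mutation or drug in any group.

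In the brain, most collagen types are made mainly by cells of vessels, meninges and choroid plexus. Type IV chains form the network of basement membranes, the sheets on which endothelial cells, pericytes, astrocyte endfeet and epithelia rest. Fibrillar collagens (types I, II, III, V, XI, XXIV and XXVII) build the cords of connective tissue, and the FACIT group decorates those cords. Type VI forms beaded filaments, type VIII forms lattices from short chains, and types XIII, XVII, XXIII and XXV cross the plasma membrane. A few members, such as types XIX and XXV, are known to be made by neurons.

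Levels are given as CPM, the fragments on a gene scaled by the library size of the sample after TMM normalization. Levels of different genes are compared only as TPM, which also divides by transcript length, and TPM was rescaled over the protein-coding genes. Values per sample are in the order of the replicate numbers, which are 1, 2, 4 and 5 for SH and 1 to 5 for EE. The samples had 22919364 to 28301861 fragments on genes. Of the 44 members, 41 passed the filter of more than 10 counts in at least 2 samples. *Col10a1*, *Col24a1* and *Col28a1* did not pass, and no sample had more than 10 counts of any of these. All results on whole tissue share a limit, that fewer cells of a type and less RNA per cell cannot be told apart.

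The most abundant collagen in DG per transcript length was *Col25a1*, a transmembrane collagen of neurons, with a mean of 31.1 TPM over the 18 samples. It was followed by the basement membrane chains *Col4a1* (15.5 TPM) and *Col4a2* (11.7 TPM). Next were *Col9a3* of the FACIT group (11.7 TPM), the fibrillar chain *Col11a2* (10.5 TPM) and the FACIT *Col19a1* (8.55 TPM). The chains of type I collagen, the main protein of connective tissue fibrils, were lower, at 5.42 TPM for *Col1a2* and 2.13 TPM for *Col1a1*. All collagens together summed to 139 ± 5.54 TPM in dorsal SH (SD, n = 4), 129 ± 5.13 in dorsal EE (n = 5), 147 ± 19.9 in ventral SH (n = 4) and 149 ± 13.4 in ventral EE (n = 5). FACIT, transmembrane, basement membrane and fibrillar members took on average 25.1%, 24.2%, 21.9% and 18.2% of the collagen sum. The short-chain network, types VIII and X, had 1.14 ± 0.868 TPM in dorsal SH and 5.06 ± 2.48 TPM in ventral SH. No test was made on these sums.

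**Figure D1:**
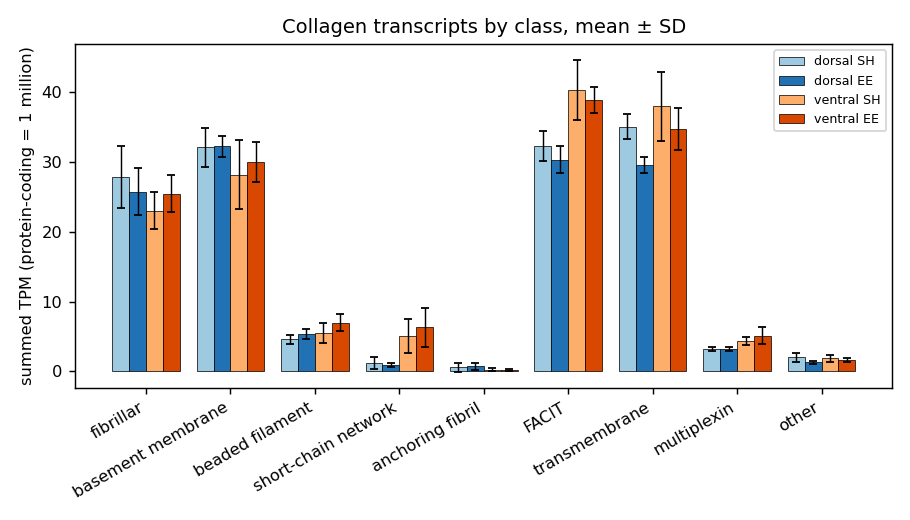
Summed TPM of the collagens of each class on the y axis (rescaled over the protein-coding genes), as mean ± SD of the 4 SH or 5 EE samples of each region. The short-chain network stands at 1.14 and 0.934 TPM in the dorsal groups and at 5.06 and 6.29 TPM in the ventral groups.

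The first comparison was between dorsal and ventral DG, with the regional differences of SH and EE tested together. A gene was called when its FDR was under 0.05 and its mean fold change over 20%, so a call need not hold in each housing. Log2 fold changes are dorsal minus ventral, so negative values mean a higher level in ventral DG, and are given ± SE. Of the 41 collagens tested, 22 (53.7%) were called, against 30.9% of all 17040 genes tested. Ventral DG was higher for 18 collagens (43.9%), against 15.9% of all genes, and dorsal DG was higher for 4 (9.76%), against 15.0% of all genes. Of the 18, *Col17a1* and *Col6a5* passed the filter on low counts through ventral samples alone, and without them 16 of 39 (41.0%) were higher in ventral DG. The median log2 fold change was -0.28 over the collagens and 0.00 over all genes. In a further pair of collagens the FDR passed but the fold change did not. These were *Col25a1* (-0.20 ± 0.04, FDR = 0.00114) and *Col4a2* (0.18 ± 0.05, FDR = 0.0176).

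**Figure D2:**
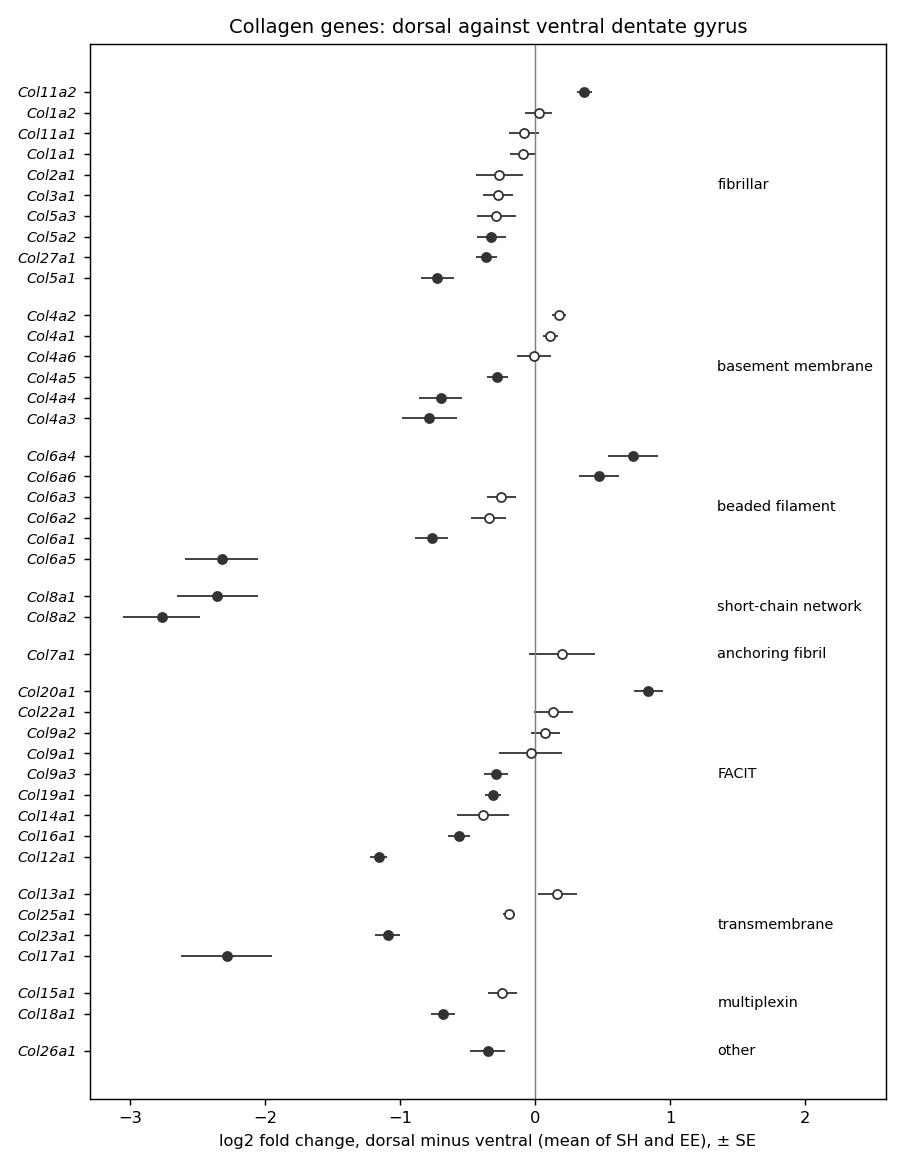
Log2 fold change of each tested collagen on the x axis (dorsal minus ventral, mean of SH and EE, bars are SE), grouped by class. Filled points passed FDR under 0.05 and a fold change over 20%. Both tested short-chain members lie left of -2, and fibrillar members other than *Col5a1* lie between -0.36 and 0.36.

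The largest regional differences were those of type VIII collagen, the short-chain lattice of vessel walls and of the basement membrane behind the cornea. *Col8a2* was at 1.97, 0.699, 0.384 and 0.447 CPM in dorsal SH and at 1.14, 0.994, 0.853, 0.448 and 0.734 CPM in dorsal EE. The ventral SH samples had 3.35, 3.38, 5.43 and 8.91 CPM and the ventral EE samples 4.58, 3.89, 10.8, 7.4 and 6.59 CPM. Each ventral sample was above each dorsal one, and the log2 fold change was -2.77 ± 0.28, FDR = 9.69e-08. *Col8a1* was at 2.26, 0.576, 0.726 and 0.744 CPM in dorsal SH and at 0.515, 1.04, 1.18, 0.489 and 0.349 CPM in dorsal EE. In ventral SH it was at 2.68, 3.49, 3.65 and 6.64 CPM and in ventral EE at 3.22, 2.04, 8.38, 6.14 and 4.78 CPM. Ventral was higher than dorsal in 9 of 9 pools (-2.35 ± 0.30, FDR = 2.09e-06), although the highest dorsal sample, SH replicate 1, exceeded the lowest ventral one.

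Choroid plexus is the secretory epithelium of the ventricles, which lie next to the hippocampus, and its markers were measured in the same samples. All 11 markers of it were called higher in ventral DG, against 15.9% of all genes, and none was at 0 in any sample. Their summed level was 25.5 to 215.6 CPM in dorsal samples, where SH replicate 1 was the highest, and 398.0 to 1458 CPM in ventral samples. Among ventral samples, EE replicate 3, SH replicate 5, EE replicate 4 and EE replicate 5 had the highest marker sums, at 1458, 1126, 945 and 825 CPM. The same samples in the same order had the highest *Col8a1* and *Col8a2*. Among dorsal samples, EE replicate 1 had the lowest marker sum (25.5 CPM), but its *Col8a2*, at 1.14 CPM, was exceeded only by SH replicate 1. Most of the ventral sums was the marker *Ttr*, at a mean of 602 CPM in ventral SH. With the marker sum as a covariate, the regional log2 fold change of *Col8a1* was 0.82 ± 0.34, FDR = 0.193, and that of *Col8a2* was 0.15 ± 0.37, FDR = 0.623, both with the sign turned and no longer called. The marker sums did not overlap between the regions, so that region and marker level cannot be fully told apart in this fit. The part of choroid plexus in these differences was not tested.

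**Figure D3:**
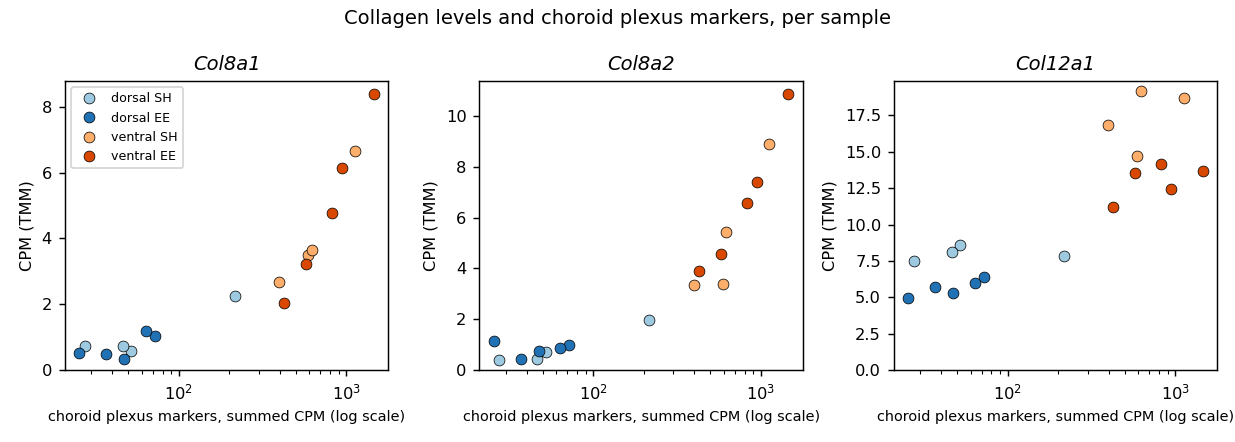
CPM of 3 collagens on the y axis against the summed CPM of 11 choroid plexus markers on a log x axis, with 1 point per sample. *Col8a1* and *Col8a2* are highest in the ventral sample with the highest marker sum (1458 CPM), whereas the ventral samples of *Col12a1* separate by housing.

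The next largest differences were those of a pair of members with low levels in dorsal DG. *Col17a1*, the transmembrane collagen of hemidesmosomes, ranged from 0.0408 to 0.166 CPM in dorsal samples (median 0.105) and from 0.106 to 0.783 CPM in ventral samples (median 0.481). It was higher in ventral DG in 9 of 9 pools, with a log2 fold change of -2.29 ± 0.34. *Col6a5*, an alternative chain of type VI, was at 0.0414 to 0.245 CPM in dorsal and 0.318 to 0.901 CPM in ventral samples without overlap (-2.32 ± 0.27). Both rest on few fragments, with counts of 1 to 4 for *Col17a1* and 1 to 6 for *Col6a5* in a dorsal sample. No dorsal sample had over 10 counts of either gene, so that both were tested only because of their ventral level, and their values are a description. With the choroid plexus covariate they were at -0.67 ± 0.84 and -0.87 ± 0.66 and neither was called. *Col23a1*, another transmembrane collagen, differed at a higher level, at 2.53 to 3.73 CPM in dorsal and 5.23 to 7.58 CPM in ventral samples (-1.09 ± 0.09, FDR = 4.86e-09), and kept its call with that covariate (-0.86 ± 0.25, FDR = 0.0389). *Col7a1*, the anchoring fibril of skin and the one member of its class, was at 0.329 to 0.897 CPM in dorsal and 0.272 to 0.905 CPM in ventral DG and was not called (0.20 ± 0.24, FDR = 0.609).

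The bases before the start sites of 4 members with large ventral differences are shown to give the DNA from which these transcripts begin. Each is the 250 bases 5′ of the RefSeq start (GRCm38.p6), on the strand of the gene, with GGGCGG or its reverse complement CCGCCC in capitals. *Col8a1* lies on the minus strand of chromosome 16 (chr16:57754738-57754987), *Col8a2* on the plus strand of chromosome 4 (chr4:126286544-126286793), *Col6a5* on the minus strand of chromosome 9 (chr9:105960644-105960893) and *Col23a1* on the plus strand of chromosome 11 (chr11:51289670-51289919).
Col8a1: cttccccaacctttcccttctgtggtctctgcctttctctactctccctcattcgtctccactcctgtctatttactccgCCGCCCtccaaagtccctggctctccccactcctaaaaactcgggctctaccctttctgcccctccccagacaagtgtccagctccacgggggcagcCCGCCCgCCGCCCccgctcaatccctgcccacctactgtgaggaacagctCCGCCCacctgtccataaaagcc
Col8a2: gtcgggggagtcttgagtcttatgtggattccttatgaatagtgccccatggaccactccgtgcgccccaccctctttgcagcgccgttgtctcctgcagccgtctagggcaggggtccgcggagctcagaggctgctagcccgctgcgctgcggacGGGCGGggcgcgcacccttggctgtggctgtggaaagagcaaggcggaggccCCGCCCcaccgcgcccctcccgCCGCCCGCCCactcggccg
Col6a5: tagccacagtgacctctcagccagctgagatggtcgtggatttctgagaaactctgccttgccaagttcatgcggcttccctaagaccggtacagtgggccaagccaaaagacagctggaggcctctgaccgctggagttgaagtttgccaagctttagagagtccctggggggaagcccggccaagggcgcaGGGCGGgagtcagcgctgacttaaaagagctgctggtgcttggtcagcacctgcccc
Col23a1: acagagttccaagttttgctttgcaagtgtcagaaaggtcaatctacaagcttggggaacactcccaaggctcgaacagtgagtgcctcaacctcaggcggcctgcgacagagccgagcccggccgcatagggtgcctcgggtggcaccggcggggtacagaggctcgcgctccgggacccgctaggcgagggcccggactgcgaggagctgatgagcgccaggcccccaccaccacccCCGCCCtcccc

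Promoter windows of 300 bases (250 before to 50 after the start) were on hand for 35 of the 44 members, as 38 windows. Those not matched were *Col1a1*, *Col2a1*, *Col4a3*, *Col5a2*, *Col9a3*, *Col12a1*, *Col14a1*, *Col22a1* and *Col26a1*. The GC box GGGCGG, searched on both strands, was in 23 of the 38 collagen windows and in 35.7% of all 32851 windows. The CCAAT box was in 13 (37.4% of all), and the TATA core TATAAA was in 5 (13.6% of all). The AP-1 letters TGANTCA were in 1 (7.81% of all) and the letters TAATCC in 0 (7.06% of all). Among the 14 windows of members called higher in ventral DG, 9 held the GC box. The window of *Col17a1*, which is not shown above, held a TATA core and a CCAAT box but no GC box. In the 4 sequences above, *Col8a1* and *Col8a2* each held 4 matches to the GC box, and *Col6a5* and *Col23a1* held 1 each, with overlapping matches counted separately.

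*Col12a1*, a FACIT that coats type I fibrils, had the smallest FDR for region among the collagens. It was at 7.81, 8.59, 7.47 and 8.11 CPM in dorsal SH and at 4.93, 6.42, 6.01, 5.71 and 5.28 CPM in dorsal EE. The ventral SH samples had 16.8, 14.7, 19.2 and 18.7 CPM and the ventral EE samples 13.5, 11.2, 13.7, 12.4 and 14.2 CPM. No dorsal sample reached the lowest ventral one, and ventral DG was 2.23-fold higher (-1.16 ± 0.06, FDR = 4.07e-12). The call was kept with the choroid plexus covariate (-0.89 ± 0.17, FDR = 0.00279) and with a covariate of fibroblast markers (-1.02 ± 0.16, FDR = 0.000437). *Col12a1* lies on the minus strand of chromosome 9 at chr9:79598991-79718831 (GRCm38).

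Of the other FACIT members, *Col16a1* (-0.57 ± 0.08, FDR = 1.34e-05), *Col19a1* (-0.31 ± 0.06, FDR = 0.000423) and *Col9a3* (-0.29 ± 0.09, FDR = 0.0241) were higher in ventral DG. *Col19a1*, a collagen of interneurons with a role in synapse formation, was at 12.1 to 16.4 CPM in dorsal and 15.5 to 19.9 CPM in ventral samples, and ventral was higher in 9 of 9 pools. For *Col9a3* ventral was higher in 6 and dorsal in 3 of 9 pools, and by housing its FDR was 0.0832 in SH and 0.0446 in EE. *Col16a1* and *Col19a1* kept their calls with the choroid plexus covariate and *Col9a3* did not. *Col20a1* went the other way, at 1.96 to 3.02 CPM in dorsal and 1.04 to 2.11 CPM in ventral samples, with dorsal higher in 9 of 9 pools (0.84 ± 0.11, FDR = 2.54e-06). The 4 others (*Col9a1*, *Col9a2*, *Col14a1* and *Col22a1*) were not called. Of the chains that join in type IX, *Col9a2* was at 0.07 ± 0.11 and *Col9a3* at -0.29 ± 0.09 on the log2 scale.

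**Figure D4:**
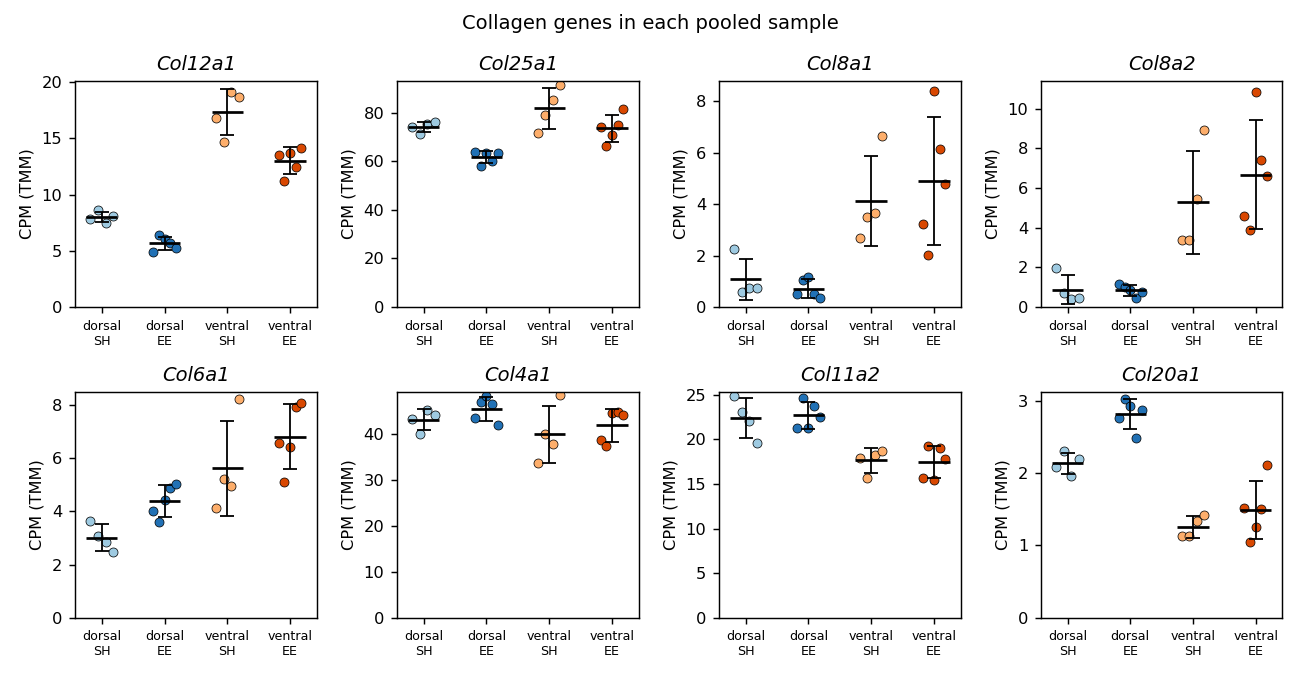
CPM after TMM of 8 collagens on the y axis in the 4 groups, with 1 point per pooled sample, the mean as a line and the SD as a bar. EE samples of *Col12a1* lie below the SH samples of the same region, and dorsal samples lie below ventral ones.

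Of the basement membrane class, *Col4a1* and *Col4a2*, the chains of vessel basement membranes in most tissues, differed by less than 20% between the regions. *Col4a1* was at 43.3, 40.0, 45.3 and 44.2 CPM in dorsal SH and 43.5, 47.0, 48.4, 46.7 and 42.1 CPM in dorsal EE. It was at 33.7, 40.0, 37.9 and 48.6 CPM in ventral SH and 38.8, 37.5, 44.7, 44.9 and 44.2 CPM in ventral EE. The regions overlapped and *Col4a1* was not called (0.11 ± 0.06, FDR = 0.227). The TPM ratio of *Col4a1* to *Col4a2* ranged from 1.05 to 1.5 (median 1.33) in dorsal and from 1.17 to 1.61 (median 1.36) in ventral samples.

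*Col4a3*, *Col4a4* and *Col4a5*, whose products join in the basement membranes of kidney glomeruli and some epithelia, were higher in ventral DG. *Col4a3* was at 0.43, 0.493, 0.384 and 0.633 CPM in dorsal SH and 0.626, 0.331, 0.325, 0.204 and 0.524 CPM in dorsal EE. It was at 0.60, 0.638, 0.729 and 0.986 CPM in ventral SH and 0.776, 0.407, 0.979, 0.787 and 1.04 CPM in ventral EE. Ventral was higher in 9 of 9 pools, although the ranges overlapped (-0.78 ± 0.20, FDR = 0.00591). *Col4a4* (-0.70 ± 0.16, FDR = 0.00181) and *Col4a5* (-0.28 ± 0.08, FDR = 0.00648) were higher in ventral DG in 8 of 9 pools each. Taken by housing, *Col4a3* and *Col4a5* passed in EE (FDR = 0.00619 and 0.00451) but not in SH (0.119 and 0.223). *Col4a4* passed in SH (FDR = 0.00218) but not in EE (0.0929). *Col4a6* was not called (-0.01 ± 0.13, FDR = 0.675). None of the 3 calls was kept with the choroid plexus covariate, where *Col4a3* and *Col4a4* kept their direction and *Col4a5* did not. The SEs of the calls lost with it were 1.14 to 2.80 times as large, so a lost call does not show that a difference went away.

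Type IV genes lie in head-to-head pairs, which start next to each other and run apart. *Col4a4* and *Col4a3* on chromosome 1 are separated by 71 bases in the annotation (GRCm38), and *Col4a6* and *Col4a5* on chromosome X by 1308 bases. *Col4a1* and *Col4a2* on chromosome 8 overlap by 22 bases. The bases between the starts of *Col4a4* and *Col4a3* are shown because both genes were higher in ventral DG (chr1:82586850-82586920, minus strand, in the direction of *Col4a4*, from RefSeq, with no match to the motifs above).
Col4a4 to Col4a3: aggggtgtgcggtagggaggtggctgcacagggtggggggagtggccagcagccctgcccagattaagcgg

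Type VI chains differed in direction. *Col6a1*, a chain found in each classical type VI trimer, was at 3.66, 3.08, 2.86 and 2.46 CPM in dorsal SH and 4.01, 3.6, 4.43, 4.89 and 5.03 CPM in dorsal EE. It was at 4.13, 5.22, 4.94 and 8.21 CPM in ventral SH and 6.56, 5.11, 6.42, 7.91 and 8.07 CPM in ventral EE. Ventral was higher in 9 of 9 pools (-0.77 ± 0.12, FDR = 6.48e-05), but the log2 fold change was 0.02 ± 0.30, FDR = 0.364 with the choroid plexus covariate. Its partners *Col6a2* (-0.34 ± 0.13, FDR = 0.0817) and *Col6a3* (-0.25 ± 0.11, FDR = 0.0976) were not called. The alternative chains *Col6a6*, *Col6a5* and *Col6a4* lie in this order in a row on chromosome 9, all on the minus strand. *Col6a4* (0.72 ± 0.18, FDR = 0.00417) and *Col6a6* (0.47 ± 0.15, FDR = 0.0202) were higher in dorsal DG, and *Col6a5*, which lies between them, was higher in ventral DG. Dorsal was higher in 9 of 9 pools for *Col6a4*, at 0.883 to 1.64 CPM against 0.162 to 1.02 CPM in ventral samples. By housing, *Col6a4* was at 1.07 ± 0.27, FDR = 0.00322 in SH and 0.38 ± 0.25, FDR = 0.22 in EE. *Col6a6* was at 0.39 ± 0.23, FDR = 0.204 in SH and 0.56 ± 0.19, FDR = 0.0186 in EE. Both rest on few fragments, with counts of 4 to 44 for *Col6a4* and 9 to 30 for *Col6a6* in a sample.

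Of the 10 fibrillar members tested, 3 were higher in ventral DG, 1 was higher in dorsal DG and 6 were not called. *Col1a1*, the main chain of type I collagen, was at 4.19 to 6.67 CPM in dorsal and 4.48 to 7.04 CPM in ventral samples and was not called (-0.09 ± 0.10, FDR = 0.421). *Col1a2* was not called either (0.03 ± 0.10, FDR = 0.651), but was called higher in dorsal DG with the choroid plexus covariate (0.78 ± 0.21, FDR = 0.0286) and with a covariate of fibroblast markers (0.67 ± 0.19, FDR = 0.0496). *Col3a1* of connective tissue also missed the threshold (-0.27 ± 0.11, FDR = 0.0659). *Col5a1* (-0.72 ± 0.12, FDR = 0.000115) and *Col5a2* (-0.32 ± 0.11, FDR = 0.0404), the chains of a collagen that nucleates fibrils, were higher in ventral DG. So was *Col27a1* (-0.36 ± 0.08, FDR = 0.000277), a cartilage collagen, by the mean of the housings. Taken by housing, *Col27a1* was at -0.15 ± 0.12, FDR = 0.373 in SH and -0.58 ± 0.11, FDR = 0.000141 in EE. *Col5a2* was at -0.28 ± 0.16, FDR = 0.175 in SH and -0.37 ± 0.15, FDR = 0.043 in EE. *Col11a2*, a cartilage and inner ear chain that was the most abundant fibrillar member, was at 24.9, 23.1, 22.1 and 19.6 CPM in dorsal SH and 21.3, 24.6, 21.3, 23.8 and 22.5 CPM in dorsal EE. It was at 18.0, 15.7, 18.2 and 18.7 CPM in ventral SH and 15.6, 19.2, 15.4, 19.0 and 17.8 CPM in ventral EE, so that each dorsal sample exceeded each ventral one (0.36 ± 0.06, FDR = 3.21e-05).

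Of the 2 multiplexins, collagens of vessel and epithelial basement membranes that release antiangiogenic fragments, *Col18a1* was higher in ventral DG in 9 of 9 pools (-0.68 ± 0.09, FDR = 3.33e-06). *Col15a1* was not called (-0.24 ± 0.11, FDR = 0.13). *Col26a1*, which fits no class, was higher in ventral DG (-0.35 ± 0.13, FDR = 0.0253), in 7 of 9 pools. By housing its FDR was 0.55 in SH and 0.0116 in EE. Beside the 4 members higher in dorsal DG stand other markers of the dorsal punches. Granule neuron markers summed to 782.5 to 963.1 CPM in dorsal and 395.3 to 584.7 CPM in ventral samples. Of these markers, 3 of 4 were called higher in dorsal DG, against 15.0% of all genes. Markers of thalamus and habenula, which lie below the dorsal hippocampus, summed to 91.7 to 139.9 CPM in dorsal and 30.6 to 43.6 CPM in ventral samples. Of these 7 markers, 5 of 6 tested were called higher in dorsal DG, against 15.0% of all genes. *Tcf7l2* was not called (0.22 ± 0.14, FDR = 0.39). Most of the dorsal sums came from *Prkcd* (2.32 ± 0.08), whose SH means were 81.7 CPM dorsally and 16.2 CPM ventrally. *Lef1* (0.27 ± 0.08) and *Slc17a6* (0.57 ± 0.18) differed less. *Pou4f1* and *Gng8* had group means of at most 0.533 and 0.622 CPM. The part of granule neurons, thalamus and habenula in the result was not tested.

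Of the 22 regional calls, 5 were lost in some fits that left out 1 pool. *Col5a2* lost its call without SH replicate 2, 4 or 5 or EE replicate 4 or 5, with FDRs of 0.0506 to 0.132. *Col9a3* lost it without SH replicate 4 or 5 or EE replicate 3, 4 or 5 (FDRs of 0.06 to 0.0745), and *Col26a1* without EE replicate 1 or 3 (0.0585 to 0.195). *Col6a6* lost it without EE replicate 1 or 2 (0.0773 to 0.123). *Col4a5* fell under the fold limit without SH replicate 5 or EE replicate 3 or 5, with log2 fold changes of -0.26 to -0.21. The other 17 calls were kept in each of the 9 fits. Besides the members described above, *Col5a1*, *Col5a2*, *Col27a1*, *Col18a1*, *Col26a1*, *Col6a4* and *Col6a6* lost their calls with the choroid plexus covariate, and *Col11a2* and *Col20a1* kept theirs. A lost call does not show that the difference went away. The log2 fold changes with the covariate were 1.05 ± 0.49 for *Col6a4*, 0.74 ± 0.41 for *Col6a6* and -0.44 ± 0.36 for *Col26a1*, each farther from 0 than without it and with a larger SE. Those of *Col18a1* (-0.22 ± 0.23) and *Col5a1* (-0.09 ± 0.31) were nearer to 0.

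Markers of other cell types known to make collagens were measured in the same samples. In the fit without covariates, 30.9% of all genes were called by region, 15.9% higher in ventral and 15.0% higher in dorsal DG. Of 10 markers of endothelial cells 0 were called by region in edgeR, and of 9 markers of mural cells 1 was called, higher in ventral DG. Endothelial sums were 292.6 to 338.3 CPM in dorsal and 273.2 to 346.9 CPM in ventral samples, and mural sums were 244.7 to 275.1 and 251.3 to 323.0 CPM. Of 10 markers of meningeal and perivascular fibroblasts, 5 were higher in ventral and 1 in dorsal DG, and none was at 0 in any sample. Their sums were 60.1 to 78.4 CPM in dorsal and 81.5 to 94.6 CPM in ventral samples, without overlap. All 4 ependymal markers were also higher in ventral DG (sums of 6.36 to 11.4 and 12.6 to 21.5 CPM). With the choroid plexus covariate, 8 collagens were called by region, of which 6 were shared with the 22, and 17.8% of all genes were called. The others were *Col1a2* and *Col4a2*, higher in dorsal DG. Of the 16 lost calls, 10 kept their direction, and the SEs were 1.14 to 2.80 times those without the covariate. With the fibroblast covariate 2 collagens were called, of which 1 (*Col12a1*) was shared, and 11.4% of all genes were called. Of the 21 lost calls, 20 kept their direction, 7 of them with a log2 fold change at least as far from 0 as before. *Col6a1* was at -0.89 ± 0.31, *Col20a1* at 0.86 ± 0.25 and *Col11a2* at 0.37 ± 0.13, while *Col18a1* was at -0.08 ± 0.17. The SEs were 1.90 to 2.62 times as large. Neither marker sum overlapped between the regions, so that region and marker level cannot be fully told apart in these fits.

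Genes that act on collagens were examined in 5 lists. The counts by region stand beside 30.9% of all genes called, 15.9% higher in ventral and 15.0% higher in dorsal DG. Among 18 that modify and fold chains, 2 were called in each direction. These were *Plod2*, which hydroxylates lysines (0.73 ± 0.06, FDR = 6.39e-09), *Mia3*, which helps export procollagen (0.27 ± 0.05, FDR = 0.000137), *P4ha2*, a prolyl hydroxylase (-0.49 ± 0.07, FDR = 7.99e-06), and *P3h2* (-0.32 ± 0.10, FDR = 0.0255). Among 13 tested genes that trim and crosslink procollagen, 7 were called with ventral DG higher and 3 with dorsal DG higher. The largest were *Loxl1*, a lysyl oxidase-like crosslinker (-1.65 ± 0.09, FDR = 3.19e-12), the propeptidases *Adamts14* (-1.44 ± 0.14, FDR = 3.82e-08) and *Adamts2* (-1.03 ± 0.11, FDR = 1.17e-07), and *Loxl2* (-1.08 ± 0.26, FDR = 0.00452). *Loxl1* was at 3.05 ± 0.255 CPM in dorsal SH (SD, n = 4) and 10.4 ± 1.9 CPM in ventral SH (n = 4).

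Among 9 tested receptors, the integrin *Itga11* was higher in dorsal DG (1.47 ± 0.10, FDR = 2.20e-10) and the receptor kinase *Ddr2* in ventral DG (-0.34 ± 0.05, FDR = 3.23e-05). Of 7 tested genes of collagen breakdown, 2 were called, the protease inhibitors *Timp2* (-1.34 ± 0.05, FDR = 1.52e-14) and *Timp4* (-0.46 ± 0.06, FDR = 5.95e-06), both higher in ventral DG. Of 15 basement membrane partners of type IV collagen, the laminin chain *Lamc1* was higher in dorsal DG (0.29 ± 0.05, FDR = 3.99e-05). The laminin chain *Lamb3* (-0.99 ± 0.12, FDR = 1.11e-06) and the nidogen *Nid2* (-0.35 ± 0.09, FDR = 0.00397) were higher in ventral DG. By region, 30.9% of all genes were called. For EE against SH, 0 genes of these 5 lists were called in either region by edgeR. Of all genes, 0.634% were called in dorsal and 0.241% in ventral DG.

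The second comparison was EE against SH within each region, with log2 fold changes as EE minus SH. Of the 41 collagens tested, 1 was called in dorsal DG (2.44%, against 0.634% of all genes), and 1 in ventral DG (2.44%, against 0.241% of all genes). In both regions it was *Col12a1*, which fell with EE, a direction in which 0.246% of all genes were called in dorsal and 0.0587% in ventral DG. At an unadjusted p under 0.05 there were 8 collagens in dorsal DG (19.5%, against 8.81% of all genes) and 7 in ventral DG (17.1%, against 7.58%). The median log2 fold change of the 41 was -0.06 in dorsal and 0.07 in ventral DG, and 0.00 over all genes in both.

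In dorsal DG, *Col12a1* was 1.41-fold lower in EE, and each of the 5 EE samples was below each of the 4 SH samples (5.67 ± 0.587 against 8.0 ± 0.476 CPM, SD). The log2 fold change was -0.50 ± 0.10, FDR = 0.0115. In ventral DG it was 1.33-fold lower (13.0 ± 1.19 against 17.3 ± 2.04 CPM), again without overlap (-0.41 ± 0.08, FDR = 0.0305). The effects in the regions differed by -0.09 ± 0.13 on the log2 scale, and this difference was not called (FDR = 1). The dorsal call was kept when any pool was left out. The ventral call was lost without SH replicate 1, 4 or 5 or without EE replicate 2, 3 or 4, with FDRs of 0.0501 to 0.215.

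A marker of fibroblasts moved in the same direction. *Ogn*, which encodes a small proteoglycan that binds collagen fibrils, fell with EE in dorsal (-0.83 ± 0.08, FDR = 1.82e-06) and ventral DG (-0.44 ± 0.07, FDR = 0.00371). It was the 1 of the 10 fibroblast markers called for EE. The median log2 fold change of the 10 was -0.16 in dorsal and -0.08 in ventral DG. *Islr* (0.13 in dorsal and 0.11 in ventral DG) and *Aldh1a2* (0.04 and 0.21) were positive in both. *Ogn* itself, at a mean of 17.4 CPM in dorsal SH and 9.83 CPM in dorsal EE, is part of the marker sum. The sum of the 10 markers was 71.7 to 78.4 CPM in dorsal SH, 60.1 to 75.4 in dorsal EE, 86.2 to 94.6 in ventral SH and 81.5 to 90.7 in ventral EE. With this sum as a covariate *Col12a1* was no longer called, at -0.42 ± 0.13, FDR = 0.132 in dorsal and -0.37 ± 0.09, FDR = 0.0838 in ventral DG. With the choroid plexus covariate it was called in both regions. *Col1a1* (-0.06 ± 0.14, FDR = 0.94 in dorsal and 0.15 ± 0.14, FDR = 0.847 in ventral DG) and *Col1a2*, the chains of the fibrils that *Col12a1* products coat, were not called for EE.

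*Col25a1* was just under the fold limit in dorsal DG, with 74.3, 71.1, 75.2 and 76.2 CPM in the SH samples and 63.8, 58.1, 63.5, 60.3 and 63.6 CPM in the EE samples. Each EE sample was below each SH sample, and the log2 fold change of -0.262 (SE 0.0617, FDR = 0.0469) compares with a limit of 0.263. Without a fold limit 2 collagens passed in dorsal DG, against 0.716% of all genes. The ventral SH samples had 71.8, 79.2, 85.3 and 91.4 CPM and the ventral EE samples 74.2, 66.3, 70.8, 74.9 and 81.4 CPM, which overlapped (-0.15 ± 0.06, FDR = 0.514). In each fit that left out a pool, its dorsal FDR was above 0.05. The sums of granule neuron markers, among the neurons of these punches, were 855.1 to 963.1 CPM in dorsal SH and 782.5 to 891.3 CPM in dorsal EE, and their part in the result was not tested.

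No other collagen passed for EE. *Col6a1* was at 2.46 to 3.66 CPM in dorsal SH and 3.6 to 5.03 CPM in dorsal EE (0.54 ± 0.19, FDR = 0.287). Its partner *Col6a2*, named after its values were seen, had the largest positive value in dorsal DG (0.59 ± 0.19, FDR = 0.228) and in ventral DG was at 0.43 ± 0.17, FDR = 0.539. *Col20a1* was at 1.96 to 2.3 CPM in dorsal SH and 2.49 to 3.02 CPM in dorsal EE, without overlap, but its FDR was 0.314. *Col4a1* had log2 fold changes of 0.08 ± 0.08, FDR = 0.853 in dorsal and 0.07 ± 0.08, FDR = 0.878 in ventral DG. Type VIII varied between samples of a group, with dorsal log2 fold changes of -0.65 ± 0.55, FDR = 0.802 for *Col8a1* and -0.11 ± 0.55, FDR = 0.976 for *Col8a2*.

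**Figure D5:**
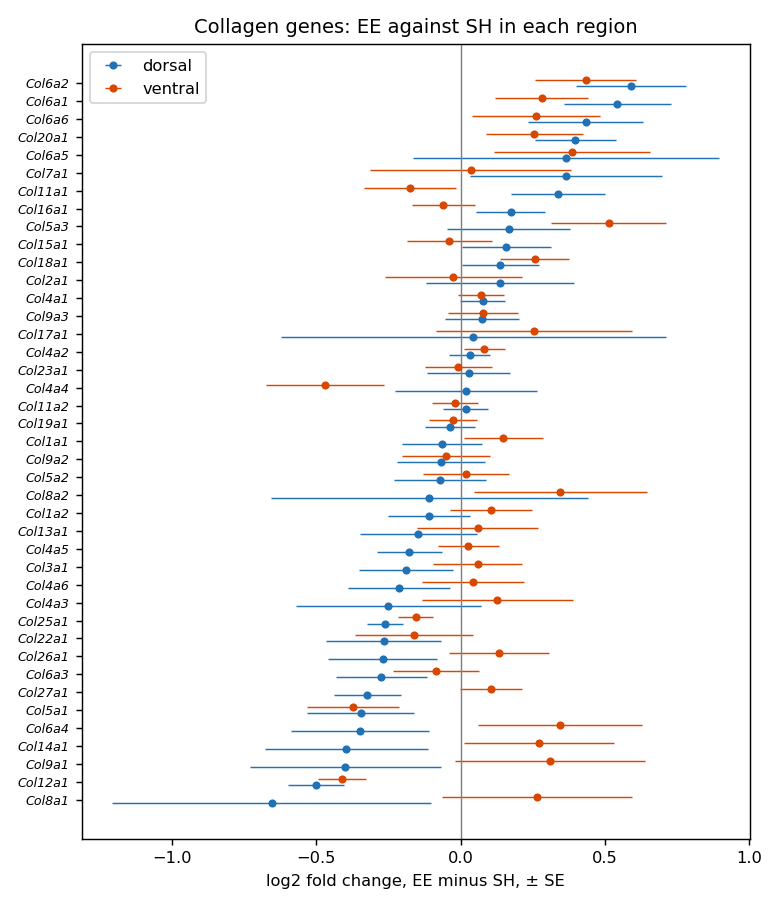
Log2 fold change of each tested collagen on the x axis (EE minus SH, bars are SE) in dorsal and ventral DG, ordered by the dorsal value. *Col12a1* is negative in both regions (-0.50 and -0.41), and the other members lie on both sides of 0.

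The third comparison was whether the EE effect differed between the regions. No collagen was called for this interaction by edgeR, and 1 of all 17040 genes was (0.00587%). At an unadjusted p under 0.05 there were 2 collagens (4.88%, against 3.25% of all genes), both fibrillar, *Col11a1* (0.51 ± 0.23) and *Col27a1* (-0.43 ± 0.16), which were named after their values were seen. Both had an FDR of 1. Signs are as the EE effect in dorsal minus that in ventral DG. DESeq2 called 0 collagens as well.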

How the data were processed

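RNA-Seq libraries of total RNA (stranded, paired-end) from tissue punches were used, with groups taken from the labels. Dorsal punches came from coronal and ventral punches from horizontal sections. The methylation libraries (MethylC and TAB) are not analysed here. The submitters' processing notes name Trim Galore 0.4.0, STAR 2.5.1b and RSEM 1.2.30, and mm10 was the build. The authors deposited raw counts of fragments per gene in unstranded and stranded form, and the stranded counts were tested. The authors also deposited an expected count per gene, as estimated by RSEM, and TPM from the same table. In the deposited TPM, protein-coding genes took only 12.5 to 23.7% of a sample, with most of the rest in small RNAs such as 7SL, so TPM was rescaled over protein-coding genes and FPKM was not used. Gene symbols and positions came from GENCODE (GRCm38).

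The 17040 genes over 10 counts in 2 or more samples were tested by edgeR 4.0.16 (R 4.3.3) with TMM normalization and quasi-likelihood tests on the 4 groups in one model. The study used generalized linear models in edgeR and the same count filter, and its normalization and kind of test are not given in the sources used here. FDRs are Benjamini-Hochberg values over all genes tested. The regional test had 2 degrees of freedom (both housings, a choice made here), and the log2 fold change given is the mean over housings. SEs are the size of that change over the square root of F. Values given for a single housing come from the contrast of its dorsal and ventral groups in the same model. The procedure was tested on simulated data. Collagens, classes, marker lists and pathway lists were chosen with earlier results of these data known. Genes named are each called collagen, *Col12a1*, *Col1a1*, *Col4a1* and *Col6a1*, the member of highest TPM in each class, and up to 4 called genes of each pathway list.

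The study left out 1 SH sample for *Xist*. It was taken to be SH replicate 3, in which *Xist* had 789 and 308 counts and the other samples at most 16. Within groups, no pair of the samples was identical. Each sample is a pool of mice, and p values measure the spread between pools. Dorsal and ventral samples of a number came from the same mice per the study (mean correlation of their deviations 0.0827 over 9 pairs). The sources do not say whether SH and EE samples with the same number share anything else. Alternatives were RLE size factors, DESeq2 1.42.0, the likelihood ratio test, other filters, unstranded and estimated counts, 20 samples, blocks, marker covariates (the log of a marker sum) and leaving out pools.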

Additional observations from a re-analysis of the deposited data

Results flagged for a closer look

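Dixon's criterion was applied to each named collagen and class sum in each group, 148 groups of 4 or 5 samples in all, and 5 values stood apart. Those of *Col8a1* and of the short-chain network sum, which contains it, came from the same sample. Chance flags about 1 in 20 groups, a larger share than was flagged here. *Col8a1* in dorsal SH replicate 1 was at 2.26 CPM, while the other dorsal SH samples were at 0.576 to 0.744 CPM, and the summed TPM of the short-chain network in that sample was 2.44, against 0.623 to 0.789. The choroid plexus marker sum was 215.6 CPM in that sample and at most 52.2 CPM in the other dorsal SH samples, and its part in the result was not tested. *Col16a1* was at 7.78 CPM in ventral EE replicate 2, against 5.90 to 6.40 CPM in the others of its group. *Col4a4* was at 1.28 CPM in ventral SH replicate 5, against 0.932 to 0.988 CPM. *Col4a5* was at 5.16 CPM in ventral EE replicate 1, against 6.65 to 7.26 CPM.

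The samples of SH replicate 3, which no comparison used, had *Xist* at 34.4 CPM (dorsal) and 12.1 CPM (ventral punch). The 18 other samples had at most 0.657 CPM.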

How the results depend on the processing

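The 22 collagens called by region were 19 to 25 when 1 pool was left out, 22 with DESeq2 (21 shared) and 22 with all 20 samples (22 shared). They were 5 (1 higher in dorsal, 4 in ventral) of 9 tested with the deposited TPM, not rescaled, over 1 in at least 3 samples, a filter that removed most members. They were 8 with the choroid plexus covariate (4 higher in ventral DG), and 2 with the fibroblast covariate (1 in each direction). For EE, the 1 call in each region became 0 with the fibroblast covariate, and 2 in dorsal DG without a fold limit. Left-out pools gave 0 to 1 calls in ventral DG and 1 in dorsal DG. No other choice moved a count of calls by over 1.5 times. With the replicate block, the counts were 23 by region (the 22 and *Col3a1*), 1 for EE in each region and 0 for the interaction. Same-numbered SH and EE samples had a mean correlation of 0.1264 over 8 pairs, 7 of them over 0.1, against -0.0314 over the 32 other pairs. Of 16 samples 9 correlated best with their own number, and the block moved no EE call.

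Values that changed sign came mostly from the covariate fits. With the choroid plexus covariate the regional log2 fold changes were 0.13 for *Col15a1*, 0.39 for *Col1a1*, 0.036 for *Col4a5*, 0.39 for *Col5a2*, 0.0167 for *Col6a1*, 0.82 for *Col8a1*, 0.15 for *Col8a2* and 0.37 for *Col9a3*. With the fibroblast covariate they were 0.50 for *Col1a1*, -1.09 for *Col7a1* and 0.12 for *Col9a3*, and *Col1a1* was 0.26 for EE in dorsal DG. *Col4a1* was -0.0071 to 0.1753 for EE in ventral DG when 1 SH pool was left out, the lowest without SH replicate 1. None of these was called, and the cause was not tested. Of 780 fits of single named genes, 707 kept direction and side of the threshold, 59 lost the call and 1 gained it. Depth limits *Col17a1*, *Col6a5*, *Col4a3* and *Col4a4*, which were near 1 CPM or below.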

Other observations

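In the samples of SH replicate 3, which were left out of the comparisons, *Col12a1* had 7.5 CPM in the dorsal and 14.9 CPM in the ventral sample. *Col25a1* was at 71.7 and 84.1 CPM, and *Col8a2* at 0.261 and 4.31 CPM. Chains that share a trimer kept different ratios of TPM. *Col1a2* to *Col1a1* ranged from 2.07 to 3.8 (median 2.94) in dorsal and from 1.64 to 2.65 (median 2.44) in ventral samples. *Col6a1* to *Col6a2* ranged from 1.57 to 3.44 (median 2.56) in dorsal and from 2.56 to 4.68 (median 3.41) in ventral samples. *Col8a2* to *Col8a1* ranged from 0.571 to 3.0 (median 1.25) and from 1.18 to 2.7 (median 1.63). These ratios depend on the transcript models used for estimation.

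Of the other marker lists, microglia (5 genes) and oligodendrocyte lineage (5 genes) had 0 genes called by region in edgeR. Astrocytes had 2 of 6 and interneurons 3 of 6 called, all higher in ventral DG, and CA pyramidal neurons had 1 of 3 higher in dorsal and 2 in ventral DG. Of all genes, 30.9% were called by region. Interneuron sums overlapped, at 408.8 to 504.5 CPM in dorsal and 435.6 to 526.6 CPM in ventral samples. The interneuron markers *Gad1* (0.21 ± 0.06) and *Gad2* (0.11 ± 0.06) had positive log2 fold changes and were not called.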
